A study of Homo sapiens with 8 samples.

Results

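The narrow regions were the 1708 autosomal regions of at most 1.6 kb among 34703 regions of the table, or 4.92% of the regions and 0.501% of the covered length (2.30 Mb). They were chosen by chromosome and width alone, with no use of the ChIP values. Chromatin immunoprecipitation followed by sequencing (ChIP-seq) measured H3K27me3 and H2AK119ub in HAP1, a human cell line with a nearly haploid genome that came from KBM-7 leukaemia cells, with 2 libraries per mark and genotype. RING1A/B-DKO cells (DKO) were HAP1 cells already lacking RING1A in which RING1B, also called RNF2, was then edited with CRISPR-Cas9. They were set against wild-type HAP1 cells (WT). Both were grown in the same medium, and no treatment is named for either. DKO lines were grown from sorted single cells, but the sources used here do not say from how many clones the libraries came. The protocol calls the samples biological duplicates, so p-values rest on the spread between duplicates, and whether these also differ by clone is unknown. limma, used below, pooled that spread over regions of like level. It did so more for H3K27me3 (107 prior degrees of freedom) than for H2AK119ub (1.1). The H3K27me3 antibody comes from one supplier in the sample labels and from another in the protocol.

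Polycomb proteins keep developmental genes silent through a pair of enzyme complexes. RING1A and RING1B are the alternative catalytic subunits of Polycomb repressive complex 1 (PRC1), which attaches ubiquitin to a lysine of histone H2A (H2AK119ub). Polycomb repressive complex 2 (PRC2) trimethylates a lysine of histone H3 (H3K27me3), and each complex can bind or be stimulated by the mark of the other. H3K27me3 occurs as short peaks, often at CpG islands, and as broad domains that can span many genes.

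Widths lie on a grid of 200 bp steps. The narrow regions comprised 5 of 0.4 kb, 30 of 0.6 kb, 85 of 0.8 kb, 197 of 1 kb, 289 of 1.2 kb, 454 of 1.4 kb and 648 of 1.6 kb, with a median of 1.4 kb. The other 31470 autosomal regions, called wider below, had a median width of 6.4 kb. All values are the authors' normalized counts, and density is the normalized count per kb. Total normalized counts over all regions were 17159 and 20938 in the DKO H2AK119ub libraries, and ran from 1575661 to 3788824 in the other 6 libraries. Each narrow region held few counts, with a median H3K27me3 value of 6 and 5 in the DKO libraries and of 9 and 9 in the WT libraries. Taken as read counts, such values carry a counting error of 40.8% and 44.7% in DKO and of 33.3% in WT, as a coefficient of variation.

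H3K27me3 over the narrow regions was lower in DKO cells, while over the wider regions it was higher on the values as deposited. Summed over the narrow regions, the density was 5.40 and 5.15 per kb in the DKO libraries, against 7.21 and 7.17 per kb in the WT libraries. The mean of 5.28 ± 0.174 in DKO was 73.3% of the mean of 7.19 ± 0.0298 in WT (SD, n = 2 each), and the 4 pairings of a DKO with a WT library gave 71.4% to 75.3%. Both DKO libraries lay below both WT libraries (two-sided exact permutation p = 0.33, the smallest that 2 against 2 libraries allow). Over the wider regions the density was 7.66 ± 0.870 per kb in DKO and 5.31 ± 0.100 per kb in WT, or 144% of WT. The sources used here do not say how the authors scaled the libraries. With TMM factors, which assume that most regions keep their level, these percentages were 52.7% for the narrow and 103% for the wider regions.

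The share of a library's own counts does not depend on scaling between libraries. Narrow regions took 0.338% and 0.379% of the autosomal H3K27me3 counts in DKO, against 0.712% and 0.689% in WT, a difference of -0.342 percentage points (exact permutation p = 0.33, the smallest possible). The comparison of narrow with wider regions within each library gave the same order. The median log2 density of narrow regions minus that of wider regions was -0.53 and -0.43 in the DKO libraries, against 0.62 and 0.60 in the WT libraries. The difference of these differences was -1.09 on the log2 scale (exact permutation p = 0.33, the smallest possible). Narrow regions were thus denser than wider ones in both WT libraries and less dense in both DKO libraries.

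**Figure D1:**
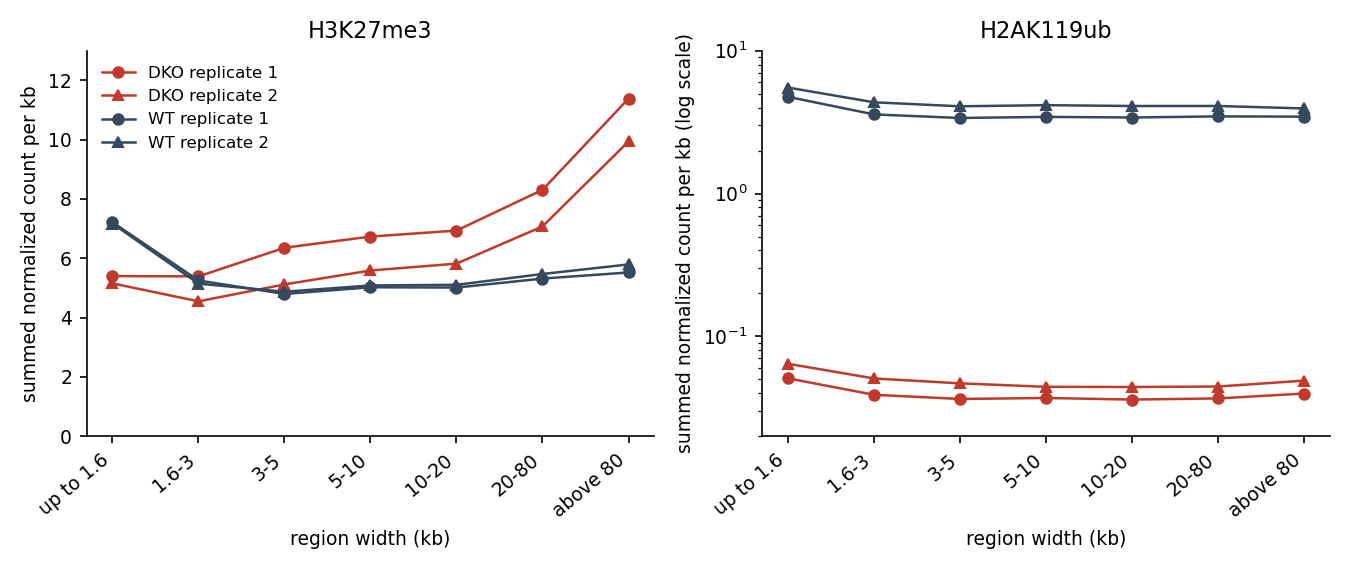
Summed normalized count per kb (y axis, linear for H3K27me3 and logarithmic for H2AK119ub) in 7 classes of autosomal region width (x axis, kb), 1 line per library, DKO in red and WT in dark grey. For H3K27me3 the DKO lines lie below the WT lines at widths up to 1.6 kb and above both from 3 kb on, as deposited; for H2AK119ub the DKO lines lie far below the WT lines in every class.

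The narrow regions stood at the low end of a gradient over width. On the values as deposited, DKO H3K27me3 density as a percentage of WT was 73.3% up to 1.6 kb, 95.6% from there to 3 kb, 118.7% to 5 kb, 122% to 10 kb, 126% to 20 kb, 143% to 80 kb and 189% above that. With TMM factors the same classes stood at 52.7%, 68.4%, 84.7%, 87.1%, 90.2%, 102% and 135%, so the order held and the width at which DKO passed WT did not. The WT libraries contributed to the low end, since narrow regions had the highest WT density of the 7 classes, 7.19 per kb against 4.83 to 5.66 per kb in the others. At the width limit itself, the 648 regions of 1.6 kb had 4.94 ± 0.190 per kb in DKO and 6.62 ± 0.152 per kb in WT. The 835 regions of 1.8 kb, just outside it, had 4.93 ± 0.373 per kb in DKO and 5.99 ± 0.25 per kb in WT. From inside to outside the limit, the DKO means differed by less than their spread, and the WT mean was the lower outside. The 85 regions of 0.8 kb had 7.90 ± 0.645 per kb in DKO and 10.4 ± 0.645 per kb in WT, while for the 5 regions of 0.4 kb the values of 13.8 ± 1.77 per kb in DKO and 12.0 ± 9.19 per kb in WT differed by less than the spread of the WT libraries.

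Region by region, most narrow regions had less H3K27me3 in DKO, and a minority had more. The log2 change was DKO minus WT of log2(normalized count + 1), a scale that shrinks the changes of regions with few counts. Over all 1708 narrow regions the median change was -0.77, the 10th percentile -2.49 and the 90th 1.44. The change was below 0 in 1145 regions, above 0 in 559 and at 0 in 4. Over the wider regions the median was 0.53, and over all regions it was 0.52. In 777 narrow regions (45.5%) both DKO libraries lay below both WT libraries, against 29.4% of all regions. The opposite held in 351 narrow regions (20.6%), against 53.3% of all regions, and in the other 580 the libraries overlapped. TMM factors moved the median log2 change of the narrow regions to -1.17 and that of the wider regions to 0.07.

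limma with Benjamini-Hochberg adjustment over all tested regions called 195 of 669 tested narrow regions lower (29.1%, against 22.8% of all tested regions) and 136 higher (20.3%, against 47.3%). The other 338 tested regions were not called, and 1039 narrow regions were too low to be tested. Of the tested regions, 286 passed the minimum through both WT libraries only and 237 through both DKO libraries only, so many could hardly have been called in more than 1 direction, and the counts are a description. Without the minimum, 371 of 1708 were lower (21.7%, against 22.4% of all regions) and 145 higher (8.49%, against 43.9%). The share of lower calls was near that of all regions, and the share of higher calls was below it. The median standard error was 0.568 in the 669 tested narrow regions, against 0.316 in all tested regions. How far this lowered the shares called was not tested. With TMM factors 248 of the 669 were lower and 62 higher, against 10546 lower and 10296 higher of all 32209 tested regions. Leaving out either WT library removed every H3K27me3 call, in narrow regions as in all other regions of the table. Such a fit had 1.4 prior degrees of freedom, against 107 with all libraries, so even the largest changes of the table were not called. The median log2 change of the 669 tested narrow regions was -0.22 with all libraries. It was -0.23 without WT replicate 1 and -0.34 without WT replicate 2. Without DKO replicate 1 it was -0.40, and without DKO replicate 2 it was -0.03.

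**Figure D2:**
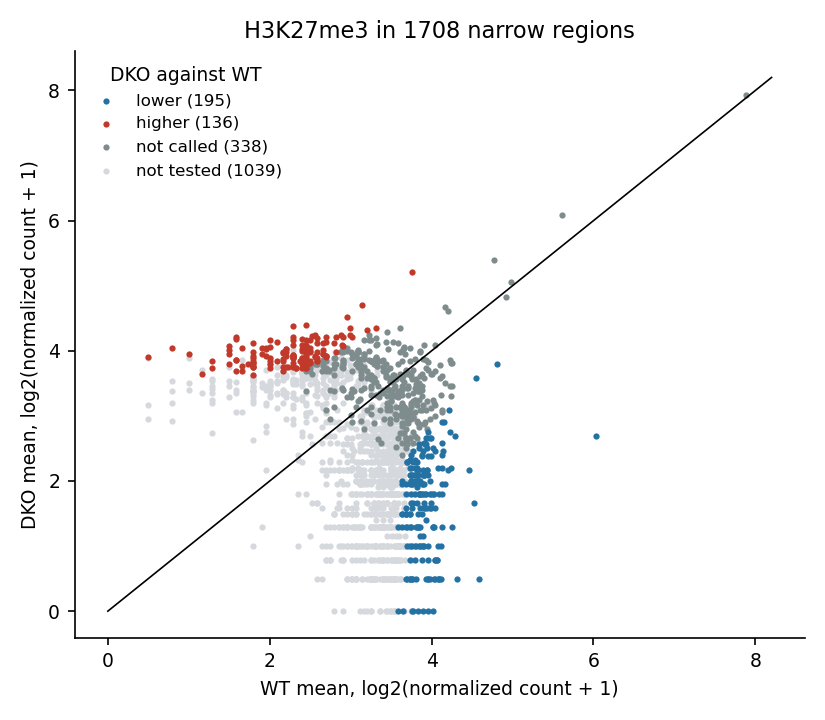
Mean log2(normalized count + 1) of H3K27me3 in DKO (y axis) against WT (x axis) for the 1708 narrow regions, coloured by the limma call, with a line of equality. The points form 1 arm of low DKO and 1 arm of low WT values, few are high in both, and the 1039 regions that were not tested lie along the inner side of the arms.

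The WT H3K27me3 libraries disagreed with each other region by region although their sums were alike. Across the 1708 narrow regions, Spearman's rho between replicate 1 and replicate 2 was 0.695 in DKO and 0.0635 in WT, against 0.797 and 0.740 over the wider regions. These are correlations across regions, which are not independent replicates. The WT libraries were at least 2-fold apart in 843 narrow regions (49.4%), against 9.22% of wider regions. Replicate 1 was the higher in 416 of them, with median values of 5 and 4 in the DKO libraries and of 14 and 5 in the WT libraries. Replicate 2 was the higher in 427, with medians of 4 and 4 in DKO and of 5 and 14 in WT. The DKO medians thus lay near the lower WT library in both subsets. Against the mean of the WT libraries the median log2 change in the 843 regions was -0.81, against the lower WT library it was -0.15, and against the higher one -1.54. limma called 2 of 165 tested regions lower and 60 higher, against 204 and 1037 of 2009 tested wider regions with such WT libraries. The lower WT library had a median of 5 in both narrow subsets, under the minimum of 10. Most of these narrow regions could thus be tested only with a DKO library at that minimum. The direction of these calls was therefore bounded in advance and is not read. In the other 865 narrow regions, where the WT libraries were less than 2-fold apart, the median log2 change was -0.66, with medians of 7 and 6 in DKO and of 10 and 10 in WT. Both DKO libraries lay below both WT libraries in 445 of these (51.45%) and above both in 225 (26.01%). In wider regions with WT libraries less than 2-fold apart, these shares were 29.53% and 55.93%. limma called 193 of the 504 tested narrow regions lower and 76 higher, against 6734 and 13167 of 28127 tested wider regions. The minimum bears on the split of the narrow regions, since 504 of these 865 were tested, against 165 of the 843. limma took the error of a change mostly from regions of like level (107 prior degrees of freedom). The gap between the WT libraries of a single region therefore weighed little in it. The spread between the WT libraries was 2.55 times counting noise in narrow and 1.30 times in wider regions, so limma p-values of narrow regions may be too small.

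Every narrow region reached at least 10 normalized counts in at least 1 H3K27me3 library. The highest of the 4 H3K27me3 values was tightly bounded, with 10th, 50th and 90th percentiles of 13, 15 and 19. For H2AK119ub the highest value ran from 3 to 14 between the same percentiles, and 30.0% of the narrow regions reached 10. The highest H3K27me3 value lay in a DKO library in 513 narrow regions (30.0%) and in a WT library in 1178 (69.0%), against 63.5% and 35.9% of wider regions. Across narrow regions, DKO and WT H3K27me3 density had a Spearman's rho of -0.436 (-0.288 over wider regions), and few regions were high in both genotypes. The highest value was in DKO replicate 1 alone in 166, in DKO replicate 2 alone in 342, in WT replicate 1 alone in 585 and in WT replicate 2 alone in 572. The libraries in which these regions were detected are not named in the sources used here, and the part that detection in a single library had in the lower DKO density was not tested.

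**Figure D3:**
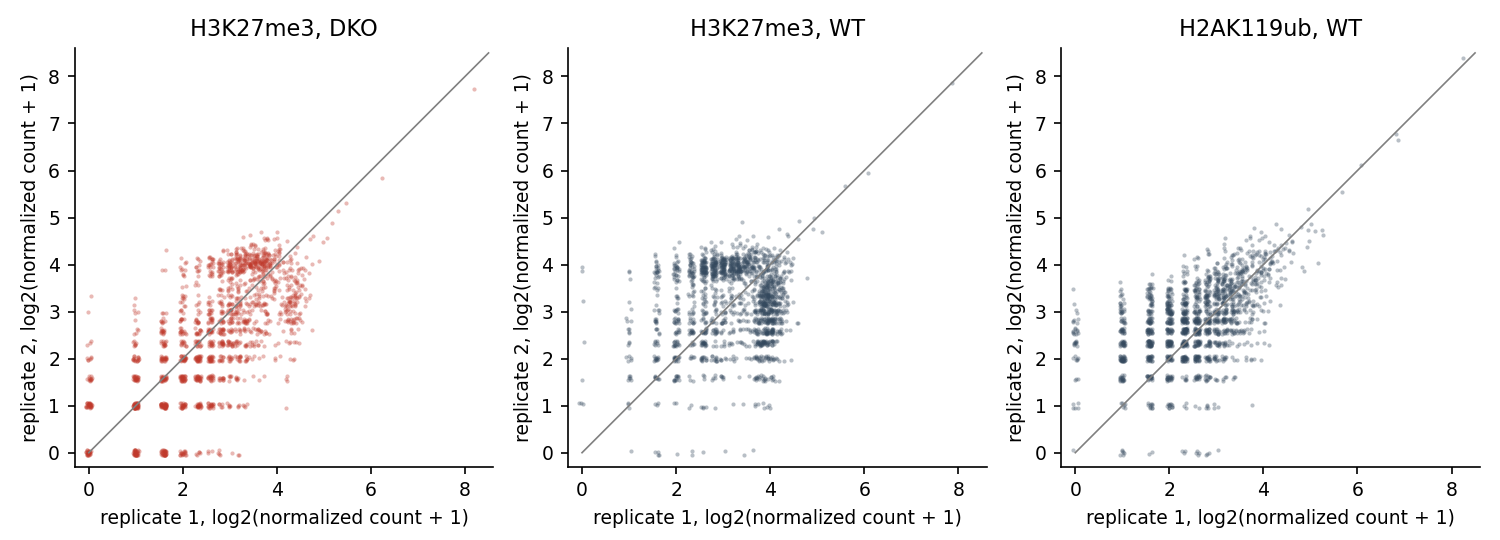
Replicate 2 against replicate 1, as log2(normalized count + 1), in the 1708 narrow regions for H3K27me3 in DKO, H3K27me3 in WT and H2AK119ub in WT, with lines of equality and points shifted slightly at random to separate ties. The H3K27me3 DKO points spread along their line and part from it at the higher values, whereas the H3K27me3 WT points fall mostly into 1 band on either side of theirs.

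H2AK119ub, the product of the missing ligases, was close to 0 in DKO over the narrow regions. It summed to 117 and 148 normalized counts over all 1708 in the DKO libraries, against 10963 and 12730 in the WT libraries. The density was 0.0508 and 0.0642 per kb in DKO, against 4.76 and 5.52 per kb in WT. The DKO mean was 1.12% of WT (0.919% to 1.35% over the 4 pairings, exact permutation p = 0.33, the smallest possible). Over the wider regions it was 1.10%. In narrow regions the spread between the DKO H2AK119ub libraries was 0.964 times counting noise, a level that so few counts can hardly exceed, and both were kept as separate samples. The DKO libraries were at 0 in 1607 and 1580 narrow regions, against 43 and 20 in the WT libraries, and 98 and 121 narrow regions held a single count in DKO. Both DKO libraries lay below both WT libraries in 1624 narrow regions (95.1%, against 99.3% of all regions). limma tested 197 and called all 197 lower and 0 higher (100% and 0% of all tested regions), and also 0 higher when p was left unadjusted at 0.05. All but 1 of the 197 passed the minimum through the WT libraries alone.

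Low counts bound how far the loss of H2AK119ub can be followed in a single narrow region. Both DKO libraries were at 0 in 1491 (87.3%). Taken as a read count, a value of 0 allows up to 3 per library, and the WT mean exceeded 3 in 1221 of these. Over the 1491 regions the median WT mean was 5.5, which on that reading makes the DKO value at least 1.83-fold lower. The largest such bound was 15.3-fold. The values are normalized counts of unknown scaling, so these bounds may not hold. The share of autosomal H2AK119ub counts in narrow regions was 0.704% and 0.727% in DKO, against 0.712% and 0.699% in WT, and these overlapped (exact permutation p = 0.667).

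A small set of narrow regions held far more H2AK119ub than the rest. The 4 regions with the highest WT density, at 85.6 to 196 per kb, stood apart from the fifth at 28.8 per kb, and they were also the 4 highest in DKO. On chromosome 1 from 121484001 to 121485600 (hg19), H2AK119ub was 10 and 14 normalized counts in DKO, against 297 and 330 in WT, and H3K27me3 was 289 and 203 in DKO, against 236 and 236 in WT. On chromosome 17 from 41381601 to 41382400, H2AK119ub was 1 and 2 in DKO, against 110 and 107 in WT, and H3K27me3 was 15 and 23 in DKO, against 7 and 14 in WT. The region on chromosome 3 from 181430201 to 181431200 had 5 and 3 counts of H2AK119ub in DKO, against 115 and 101 in WT, with H3K27me3 at 12 and 16 in DKO, against 6 and 6 in WT. On chromosome 7 from 61968801 to 61969600, H2AK119ub was 4 and 2 in DKO, against 66 and 71 in WT, and H3K27me3 was 77 and 58 in DKO, against 46 and 50 in WT. The regions on chromosomes 1 and 7 were thus high in H3K27me3 in both genotypes, at 46 to 289 counts, against 6 to 23 in the regions on chromosomes 17 and 3. The nearest region lay 1055 kb away on chromosome 1 and 2354.8 kb away on chromosome 7, against 17.4 kb on chromosome 17 and 272 kb on chromosome 3. The part that read mapping had in the counts of these 4 regions was not tested. H2AK119ub fell in all 4 on the values as deposited (limma adjusted p from 0.000515 to 0.00153). This direction turned round when the libraries were scaled to equal totals, which removes any loss shared by all regions. All 4 calls were lost without either of the WT libraries (limma adjusted p from 0.0786 to 0.129). H3K27me3 was not called in any of them, with log2 changes of 0.04 to 1.09 (limma adjusted p from 0.0670 to 0.849). With TMM factors the region on chromosome 1 was called lower (log2 change -0.44, limma adjusted p = 7.10e-05), as it was with the other scalings tried, and without the trend the region on chromosome 3 was called higher (limma adjusted p = 0.0130). The 4 regions held 17.1% and 14.2% of the DKO H2AK119ub counts of all narrow regions, against 5.36% and 4.78% of the WT counts. Their DKO level was 3.43% of WT, against 0.996% in the other 1704, so without them the narrow share of H2AK119ub was lower in DKO, at 0.604 ± 0.0286% against 0.670 ± 0.00612% in WT (n = 2 each).

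The H3K27me3 change of narrow regions was ordered by how much H2AK119ub they carried in WT cells. The regions were divided at the quartiles of mean WT H2AK119ub density into groups of 441, 418, 449 and 400. From the lowest to the highest group, the median log2 change of H3K27me3 was 0.45, -0.59, -1.04 and -1.40. Summed H3K27me3 density in DKO was 6.52, 5.52, 4.60 and 4.32 per kb in this order, while in WT it was 5.39, 6.79, 7.58 and 9.33 per kb. Both DKO libraries lay below both WT libraries in 24.5%, 39.5%, 51.7% and 68.0% of the groups, and above both in 38.1%, 23.9%, 13.4% and 5.75%. In wider regions cut at the same densities, both DKO libraries lay below both WT libraries in 7.74%, 26.03%, 54.78% and 71.08%. Counted from the lowest, the narrow share was above the wider one in groups 1 and 2 and below it in groups 3 and 4. The share above both WT libraries was lower in narrow than in wider regions in each group. The wider groups had median log2 changes of 1.10, 0.49, -0.58 and -1.14, so the narrow median was the lower in each group. The order remained with TMM factors, at 0.03, -1.01, -1.45 and -1.79 for the narrow groups. The sign of the lowest group did not, since its median was -0.02 with scaling to column totals and -0.06 when ranked by WT H2AK119ub replicate 1 alone. Across narrow regions, Spearman's rho of WT H2AK119ub density with the H3K27me3 change was -0.393 (n = 1708 regions), and with WT H3K27me3 density 0.447. The WT H3K27me3 of a region is also one side of its change, and the part that this had in the order was not tested.

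**Figure D4:**
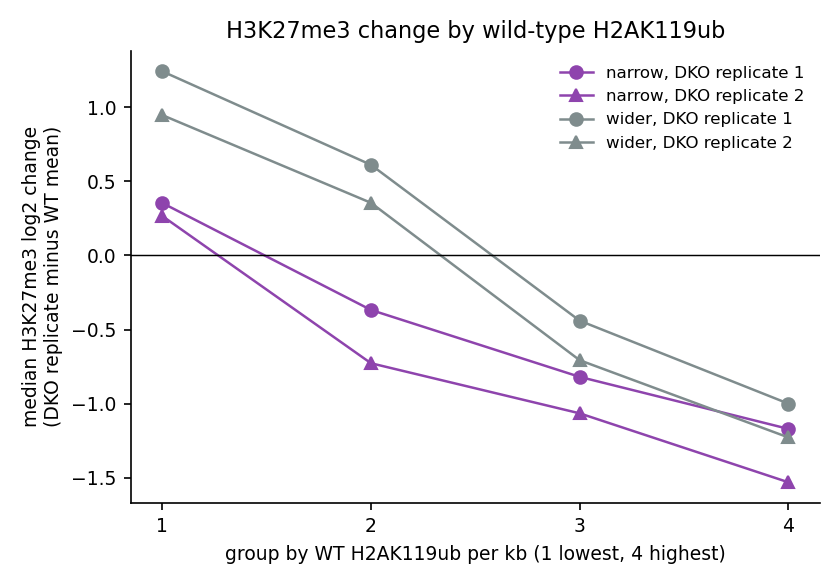
Median H3K27me3 log2 change of each DKO library against the WT mean (y axis) in 4 groups of regions by WT H2AK119ub per kb (x axis, lowest to highest), for narrow and wider regions. All lines descend from left to right, and in each DKO library the narrow regions lie below the wider ones in every group.

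Among called narrow regions whose mean H3K27me3 exceeded the median of tested narrow regions, the 6 with the largest falls of H3K27me3 are described first. On chromosome 11 from 86648801 to 86650200, H3K27me3 was 1 and 0 normalized counts in DKO, against 23 and 23 in WT, so the mark was nearly absent in DKO (limma adjusted p = 5.00e-07). The region on chromosome 1 from 148854601 to 148855800 had 6 and 5 counts in DKO, against 68 and 61 in WT, the highest WT level of the 6. Its log2 change was -3.34 ± 0.39 (SE, limma adjusted p = 1.62e-12). On chromosome 15 from 67311401 to 67313000 the values were 4 and 1 in DKO, against 20 and 24 in WT. The log2 change there was -2.86 ± 0.60 (SE, limma adjusted p = 2.19e-05), and H2AK119ub was 0 and 0 in DKO, against 21 and 15 in WT. The other 3 had log2 changes of -2.30, -2.22 and -2.04. They were on chromosome 1 from 234663401 to 234665000, with 3 and 4 counts in DKO, against 17 and 26 in WT, on chromosome 3 from 42780601 to 42782200, with 2 and 4 in DKO, against 17 and 17 in WT, and on chromosome 10 from 9137201 to 9138600, with 4 and 3 in DKO, against 16 and 19 in WT. By the rule that named them, the DKO and WT values of the 6 do not overlap. WT H2AK119ub density in the 6 ran from 4.64 to 15.0 per kb.

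Among called regions above the same level limit, the 6 largest rises had log2 changes of 1.88 to 2.17. On chromosome 7 from 118386201 to 118387800, H3K27me3 was 13 and 22 normalized counts in DKO, against 3 and 3 in WT, a log2 change of 2.17 ± 0.60 (SE, limma adjusted p = 0.000994). On chromosome 6 from 44660201 to 44661800 the counts were 23 and 17 in DKO, against 7 and 2 in WT, and on chromosome 3 from 22884601 to 22886200 they were 21 and 13 in DKO, against 5 and 2 in WT. DKO reached 20 in both libraries on chromosome 2 from 15849001 to 15850600, where WT had 4 and 5 counts. The other 2 lay on chromosome 2 from 200093401 to 200094800, with 16 and 19 in DKO, against 3 and 5 in WT, and on chromosome 19 from 11998401 to 11999200, with 16 and 18 in DKO, against 5 and 3 in WT. Log2 changes of the last 5 were 1.88 to 2.08. WT H2AK119ub in the 6 rising regions was 2.19 to 7.50 per kb, which overlaps the range of the falling ones. The calls of these falls and rises were all lost without either of the WT libraries, as was every H3K27me3 call of the whole table. That loss therefore does not set these regions apart. Without a WT library their log2 changes ran from -4.08 to -1.93 in the falls and from 1.38 to 2.79 in the rises. Calls were also lost without a DKO library, more often among the rises than among the falls. Their log2 changes then ran from -4.58 to -1.85 in the falls and from 1.72 to 2.52 in the rises.

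For 4 densely marked narrow regions, picked for their small change, the log2 change as deposited was within 0.02 of 0. The standard errors were 0.46 to 0.54. With TMM factors the log2 changes were -0.46 to -0.42, and with column totals -0.51 to -0.47, and limma called none of them. On chromosome 1 from 24162401 to 24163200 the H3K27me3 counts were 13 and 7 in DKO, against 13 and 7 in WT, and on chromosome 6 from 34129001 to 34130600 they were 11 and 17 in DKO, against 16 and 12 in WT. Chromosome 2 from 202701201 to 202702600 had 12 and 12 in DKO, against 14 and 10 in WT, and chromosome 12 from 10832001 to 10833000 had 12 and 8 in DKO, against 7 and 14 in WT. H2AK119ub was at 0 in both DKO libraries in all 4, against WT means of 4.5 to 13 counts.

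**Figure D5:**
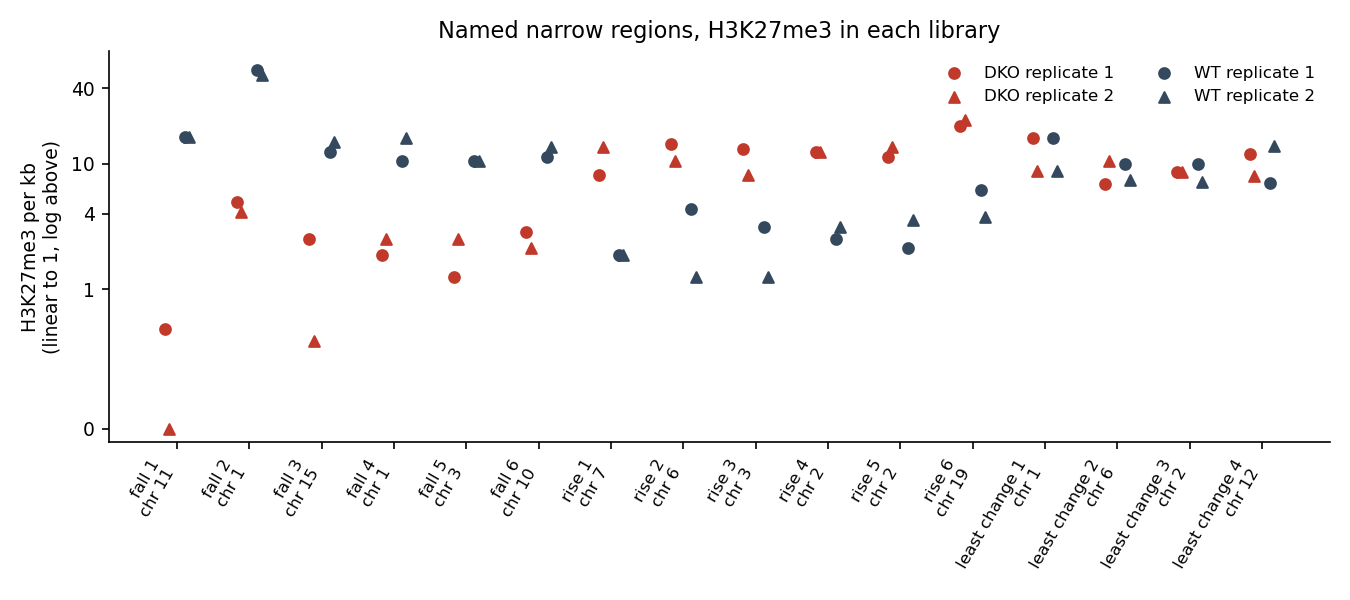
H3K27me3 normalized count per kb (y axis, linear to 1 and logarithmic above) in each library for the 6 falls, 6 rises and 4 least changed narrow regions named in the text (x axis), DKO in red left of WT in dark grey. In the falls and rises the DKO and WT points do not overlap, and in the least changed regions they do.

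Narrow regions were more isolated than wider ones. The gap to the nearest region had a median of 13.6 kb for narrow and 9.8 kb for wider regions, and it was at least 50 kb for 285 narrow regions (16.7%), against 8.85% of wider ones. The nearest region was itself narrow in 117 cases. The H3K27me3 change had the sign of the neighbour's change in 1230 of 1704 narrow regions (72.2%), against 80.5% of wider regions. This share was 77.9% at gaps of 5 to 7.5 kb, 72.6% to 15 kb, 71.8% to 50 kb and 64.4% beyond. Neighbours of the 777 narrow regions with both DKO libraries below both WT libraries had a median log2 change of -1.06, and neighbours of the 351 with the opposite order had 1.13. Where both a narrow region and its neighbour were called, they went the same way in 197 of 218 pairs (90.4%). The fall on chromosome 1 from 148854601 went against its neighbour, which was called higher, but that neighbour was 203.6 kb away. The nearest neighbours lay in the same libraries and may belong to 1 domain, so they are not independent of the narrow regions.

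The lower H3K27me3 of narrow relative to wider regions was spread over the genome. The median log2 change of narrow regions was below that of wider regions on 22 of 22 autosomes. It was below 0 on 21 of 22 as deposited, with chromosome 4 at 0.03 (88 narrow regions), and it was lowest on chromosome 21 at -1.73 (16 narrow regions). Narrow regions made up 3.57% of the regions on chromosome 11, the lowest share, and 6.72% on chromosome 18, the highest.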

How the data were processed

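The authors deposited 1 table of ChIP-seq values with 2 libraries for each of H3K27me3 and H2AK119ub in DKO and in WT cells. Per the file headers, the values used are the authors' normalized counts per region, whole numbers treated here as a score, because the sources used here do not say how they were normalized. Columns of log2 values and p-values that the authors deposited were not used. The submitters' processing notes name deepTools, Bowtie2, bedtools, Picard and SAMtools, with build hg19. Positions are 1-based, and gene annotation of that build was not used here, so regions carry no gene names. Depth is unknown beyond the totals over regions.

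limma 3.58.1 in R 4.3.3 was fitted per mark to log2(normalized count + 1) over all regions in which at least 2 of 4 libraries reached 10 and the sum reached 15, with a trended prior and a Benjamini-Hochberg threshold of 0.05. Single values per library were compared with exact two-sided permutation tests. Named regions were the 6 largest called falls and rises of H3K27me3 above the median level of tested members with libraries that did not overlap, the 4 smallest changes among the densest 10% of members, and the 4 highest by H2AK119ub, chromosome 8 left out. The members, rules and lists were chosen with earlier results of these data known. The limma step was run on simulated counts with Poisson noise alone. The WT H3K27me3 libraries spread 2.55 times counting noise in narrow regions, so that check does not cover them.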

Additional observations from a re-analysis of the deposited data

How the results depend on the processing

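For H3K27me3 the narrow regions stayed below the wider ones in every alternative tried, and the size and the calls moved. The density ratio of DKO to WT (0.733) was 0.692 at a width limit of 1.2 kb, 0.795 at 2 kb, 0.509 scaled to column totals, 0.527 with TMM factors, and 0.716 to 0.750 with 1 library left out. The share difference of -0.342 percentage points was -0.118 at 1.2 kb and -0.687 at 2 kb, and the narrow against wider difference of -1.09 was -0.96 at 2 kb. The median log2 change of -0.77 was -1.17 with TMM factors, -1.22 with column totals, -1.20 with median-of-ratios factors, and -0.85 to -0.61 with 1 library left out. Lower calls (195) were 371 without a minimum, 363 at a mean of at least 5, 36 at 1.2 kb, 553 at 2 kb, and 0 to 89 with 1 library left out. Higher calls (136) were 62 with TMM factors, 57 with column totals, 58 with median-of-ratios factors, 33 at 1.2 kb, 391 at 2 kb, and 0 to 16 with 1 library left out. The difference between the outer H2AK119ub groups (-1.86) was -1.21 and -1.62 when ranked by WT replicate 1 or 2 alone, and -1.85 to -1.52 with 1 library left out.

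For H2AK119ub, scaling the libraries to each other reduced the measured loss by construction. Column totals remove any loss that all regions share. TMM factors assume that most regions keep their level, whereas both DKO libraries lay below both WT libraries in 99.3% of all regions. These scalings therefore cannot measure a loss of the whole mark, and only compare narrow with other regions. The density ratio (0.0112) became 1.01 with column totals and 0.429 with TMM factors. Lower calls (197) were 151 with each of the 3 scalings, and higher calls (0) were 2 with TMM factors, 4 with column totals and 4 with median-of-ratios factors. Lower calls were 1513 of 1707 tested without a minimum and 299 of 299 at a mean of at least 5. They were 48 of 48 at 1.2 kb and 526 of 526 at 2 kb. The share difference of 0.00962 percentage points was -0.0466 at 2 kb, -0.0663 without the 4 regions highest in H2AK119ub, and -0.00205 to 0.0213 with 1 library left out. The narrow against wider difference of 1.43 was 1.6 at 1.2 kb, 1.28 with a pseudocount of 0.5 and 1.85 against wider regions of 5 to 20 kb. With DKO medians at 0 it reflects the pseudocount per width and is not read.

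Under TMM, column-total and median-of-ratios scaling, the log2 change of H3K27me3 at 1:121484001 was -0.44, -0.49 and -0.47, each called lower by limma (adjusted p = 7.10e-05, 4.34e-06 and 2.03e-05). That of H2AK119ub was 0.52, 1.74 and 1.14 there, 0.44, 1.62 and 1.04 at 3:181430201, and 0.62, 1.77 and 1.20 at 7:61968801. With column totals it was 0.22 at 17:41381601 and 0.49 at 11:86648801, where median-of-ratios gave 0.21. For H2AK119ub such values set a region against the loss over all regions and do not measure its own loss. The replicate numbers did not pair the samples, since deviations of same-numbered libraries correlated at 0.0149 for H3K27me3 and -0.00858 for H2AK119ub. With the replicate block limma called 195 lower and 134 higher for H3K27me3, and 197 lower for H2AK119ub. Low counts limit all calls for single regions.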

Other observations

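Narrow regions on chromosome X, which the autosomal rule left out, numbered 99. Their H3K27me3 density was 5.96 and 5.52 per kb in the DKO libraries, against 6.70 and 6.35 per kb in the WT libraries, or 88.0% of WT on the values as deposited. The groups did not overlap, and 2 against 2 libraries cannot reach an exact permutation p below 0.33. H2AK119ub in these regions was 2 and 5 normalized counts in all in DKO, against 449 and 587 in WT.

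The ratio of H2AK119ub to H3K27me3 in WT cells was alike in narrow and wider regions. In WT replicate 1 the summed ratio was 0.660 in narrow and 0.659 in wider regions, and in WT replicate 2 it was 0.770 and 0.760. The higher WT density of narrow regions was thus shared by both marks.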
